A study of Bos taurus with 6 samples.

Results

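The genes described here are 10 genes of the carnitine shuttle and of mitochondrial fatty acid beta-oxidation, CPT1B, SLC25A20, CPT2, ACACB, ACADVL, ACADM, HADHA, HADHB, ECI1 and ETFDH, out of 18010 annotated genes. They were chosen by their place in the pathway, with earlier results of these data known, and were matched by gene name. All 10 were found in every animal and passed the filter on low values, a mean level of 1 FPKM or more in either breed. RNA-Seq was done on the longissimus dorsi, the long muscle of the back, of 3 Shandong black cattle and 3 Luxi cattle, all 18 months old, with a library for each animal. Shandong black cattle were bred from Japanese black, Luxi and Bohai black cattle, and Luxi cattle are a local yellow breed. The study asked how genes of lipid metabolism differ between the breeds. The animals of each breed came from their own supplier, though feeding was managed alike, and the Luxi libraries were deeper in all 3 animals, so breed, source of the animals and depth cannot be told apart. The sex of the animals is not given in the labels. XIST, which is expressed from the inactive X chromosome, separated the breeds fully, so sex cannot be told apart from breed either.

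Long-chain fatty acids cannot cross the inner mitochondrial membrane by themselves. They are joined to carnitine by CPT1 at the outer membrane, carried inward by the translocase SLC25A20 and returned to coenzyme A by CPT2, and each round of beta-oxidation then shortens the chain through a dehydrogenase, a hydratase, a second dehydrogenase and a thiolase. In muscle, malonyl-CoA made by ACACB at the outer membrane inhibits CPT1, and slow oxidative fibres are known to burn more fatty acid than fast glycolytic fibres.

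Levels are given as FPKM, the fragments found per kilobase of a transcript after correction for the size of its library, so that they can be compared between genes. Each library rested on 14.1 to 14.6 gigabases of aligned sequence in Shandong black cattle and on 17.5 to 17.99 gigabases in Luxi cattle. The muscle label was met by the marker ACTA1, skeletal muscle actin, at 12237 to 54910 FPKM. Luxi 1 stood apart from the other libraries. It had the most transcripts (175373), the largest share of FPKM in transcripts left out of the gene levels (29.8%) and the lowest ACTA1. Values without it are given beside several of the results that it moves most.

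Of the 10 genes, 8 had a lower fitted level in Luxi cattle and 2, SLC25A20 and ACACB, a higher one, but none was called different between the breeds. The test was limma on log2(FPKM + 1) over the 9781 genes that passed the filter, with Benjamini-Hochberg adjustment. A call needed an adjusted p under 0.05 together with a log2 fold change of 1 or more in either direction, which 251 genes met (2.57%). At an unadjusted p under 0.05 the count was 3 of 10 genes, beside 21.8% of all genes tested. In CPT1B, ACADVL and HADHA every Luxi animal lay below every Shandong black animal. This was 3 of 10 genes, near the 29.1% of all genes tested whose breeds did not overlap in either direction, and the share with all Luxi animals below was 9.13%. With fewer animals to overlap, the breeds were apart in 5 of the 10 genes without Shandong black 1 (35.6% of all genes), Shandong black 2 (41.3%) or Luxi 3 (37.4%), and in 6 without Luxi 1 (50.4%). The median log2 fold change of the 10 genes, Luxi over Shandong black, was -0.34 against 0.13 for all genes tested. Median-of-ratios scaling between animals moved the latter to 0.02 and the former to -0.47, so the 8 genes stayed lower under that scaling. In a piece of muscle, fewer cells of a type and less RNA per cell cannot be told apart.

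**Figure D1:**
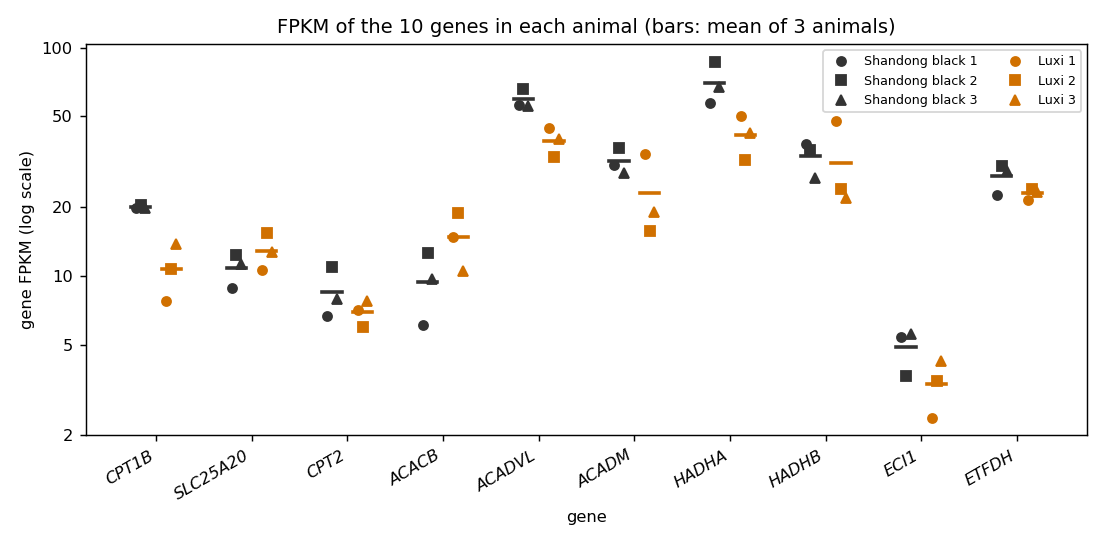
Gene FPKM on a log axis for the 10 genes, with a point for each of the 3 Shandong black (dark) and 3 Luxi (orange) animals and a bar at the mean of each breed. The animals of the breeds do not overlap in CPT1B, ACADVL and HADHA, and overlap in the other 7 genes.

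CPT1B, the muscle form of carnitine palmitoyltransferase 1 and the entry step of the shuttle, had the largest fitted difference of the 10 genes over all 6 animals. Without Luxi 1 those of HADHA (-0.89), ACADM (-0.83) and ACADVL (-0.69) were larger than that of CPT1B (-0.68). The gene lies at chr5:119888738-119897492 on the minus strand of ARS-UCD1.2, the build of all positions given here. Its level was 19.9, 20.5 and 19.8 FPKM in Shandong black 1, 2 and 3, and 7.74, 10.7 and 13.8 FPKM in Luxi 1, 2 and 3. The Shandong black animals were nearly equal, and all 3 Luxi animals were lower and more spread. The means were 20.04 ± 0.374 FPKM (SD, n = 3) and 10.7 ± 3.01 FPKM (SD, n = 3), a ratio of 0.536. The log2 fold change of -0.87 (SE 0.24, 95% interval -1.43 to -0.32) had a limma adjusted p of 0.0966. By exact permutation, two-sided, p was 0.1, which no comparison of 3 with 3 animals can go below. CPT1B was called under TPM (log2 fold change -1.03, adjusted p = 0.0395), under median-of-ratios scaling (-1.02, adjusted p = 0.0490) and under quantile normalization (-1.04, adjusted p = 0.0408), and in no other fit. Without Luxi 1 its adjusted p was 0.0611.

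The gap between the breeds was seen along nearly the whole CPT1B transcript. A reference transcript of 19 exons carried nearly all of its FPKM in every animal, and no assembled transcript was added. In 18 of the 19 exons the read coverage of all 3 Luxi animals was below that of all 3 Shandong black animals. The exception was the first exon, whose coverage was near 1 read per gigabase in most animals. The ratio of mean coverage, Luxi over Shandong black, ran from 0.379 in exon 4 to 0.748 in exon 16, with a median of 0.523. Exon 11 was the most covered exon in all 6 animals, at 57.7 to 69.6 in Shandong black cattle and 26.9 to 44.6 in Luxi cattle.

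SLC25A20, the carnitine-acylcarnitine carrier of the inner membrane (chr22:51045044-51080117, plus strand), did not share that gap. It was at 8.88, 12.4 and 11.3 FPKM in Shandong black 1, 2 and 3 and at 10.6, 15.3 and 12.7 FPKM in Luxi 1, 2 and 3. The breeds overlapped and the means stood in the other direction, at 10.9 ± 1.79 and 12.9 ± 2.38 FPKM (SD, n = 3 each). The breeds differed by a log2 fold change of 0.22 (SE 0.22, 95% interval -0.29 to 0.74, limma adjusted p = 0.582).

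CPT2, which returns the acyl group to coenzyme A inside the mitochondrion (chr3:93032986-93057158, minus strand), was at 6.66, 11.0 and 7.90 FPKM in Shandong black 1, 2 and 3. The Luxi values were 7.05, 5.97 and 7.75 FPKM. Only Shandong black 2 stood clear of the Luxi animals, so the breeds overlapped. Luxi over Shandong black, the log2 fold change was -0.24 (SE 0.22, 95% interval -0.76 to 0.27, limma adjusted p = 0.549), and it was -0.065 without Shandong black 2.

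Because CPT1B and its partners differed unevenly, their ratios within an animal were set side by side as a description, chosen with the values known. CPT1A, the liver form of the same enzyme, was expressed at 2.93 to 3.45 FPKM in Shandong black cattle and 2.18 to 3.86 FPKM in Luxi cattle. CPT1B exceeded it by 5.93 to 6.74 times in Shandong black cattle and by 2.95 to 3.56 times in Luxi cattle. The ratio of CPT1B to CPT2 was 2.98, 1.86 and 2.50 in Shandong black 1, 2 and 3 and 1.10, 1.80 and 1.78 in Luxi 1, 2 and 3. Neither ratio overlapped between the breeds, though the second came within 0.1 of doing so. CPT1B stayed above CPT1A in all 6 animals.

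ACACB, acetyl-CoA carboxylase beta, makes the malonyl-CoA that inhibits CPT1 (chr17:63845551-63961262, minus strand). It was at 6.11, 12.6 and 9.67 FPKM in Shandong black 1, 2 and 3 and at 14.8, 18.9 and 10.5 FPKM in Luxi 1, 2 and 3. Shandong black 2 lay above Luxi 3, so the breeds overlapped. The log2 fold change of 0.61 (SE 0.31, 95% interval -0.12 to 1.33) had a limma adjusted p of 0.296. Its direction turned to -0.15 with reference transcripts only and to -0.18 when assembled transcripts needed 90% of their bases on the exons. The reference transcripts carried as little as 10.4% of the gene in Luxi 2 and as much as 92.8% in Shandong black 2, the rest being assembled variants.

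The read coverage of the ACACB exons, summed over all transcripts that cross them, was compared as well. All 3 Luxi animals exceeded all 3 Shandong black animals in 3 of its 56 exon blocks, 2 of which are alternative first exons of annotated transcripts. The block at chr17:63929775-63930029 opens the shortest annotated transcript and had a coverage of 0.777, 0.822 and 0.584 reads per gigabase in Shandong black 1, 2 and 3. In Luxi 1, 2 and 3 it reached 10.6, 3.37 and 2.51. The other such block, at chr17:63949912-63950381, was at 0.0759 to 0.312 in Shandong black cattle and at 0.434 to 1.86 in Luxi cattle. The last of the 3 blocks, at chr17:63881762-63882007, is an inner exon of the gene. It was at 5.03, 5.74 and 5.66 in Shandong black 1, 2 and 3 and at 7.13, 17.5 and 8.33 in Luxi 1, 2 and 3. The alternative first exons are small beside the exons that all annotated ACACB transcripts share, such as the one at chr17:63872910-63873065 with a coverage of 14.6 to 26.5 in Shandong black cattle and 21.1 to 40.5 in Luxi cattle. Luxi 1 also held 3 ACACB transcripts within the gene but mostly outside its exons (8.59 FPKM in all), and what they add to these blocks was not tested.

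**Figure D2:**
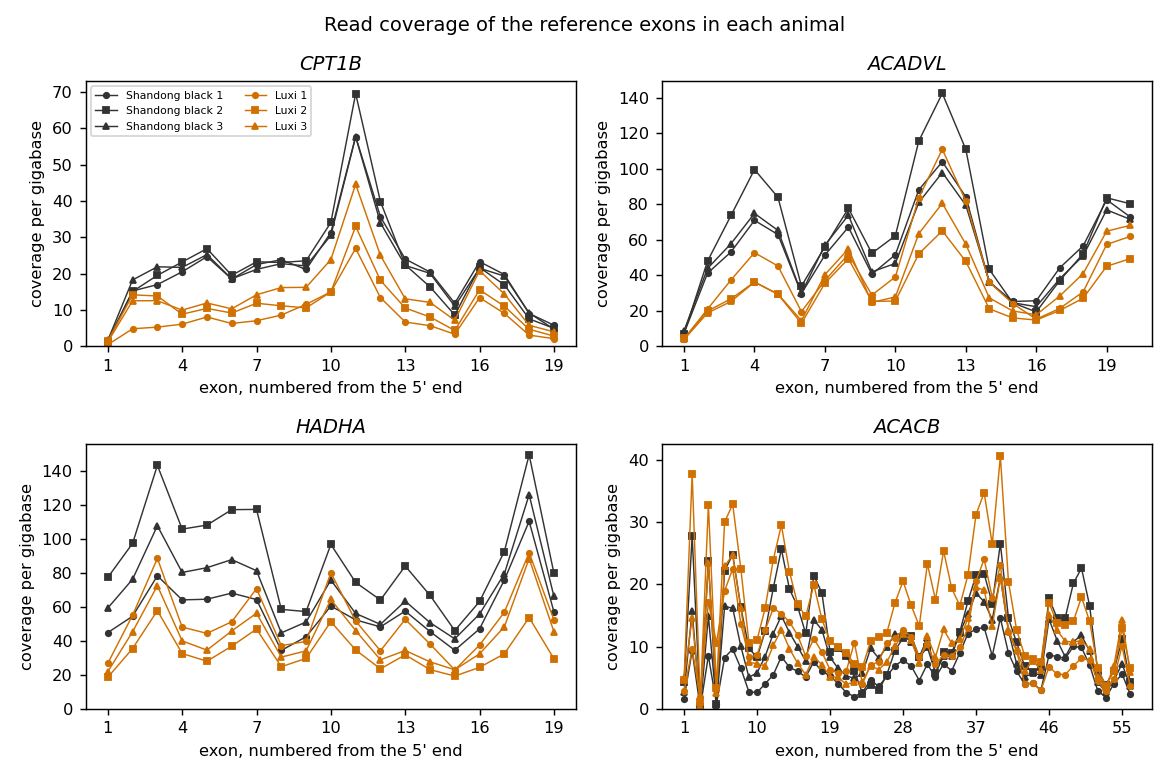
Read coverage per gigabase of aligned sequence of each reference exon of CPT1B, ACADVL, HADHA and ACACB, numbered from the 5′ end of the gene, with a line for each animal (Shandong black dark, Luxi orange). The Luxi lines run below the Shandong black lines in 18 of 19 CPT1B exons, 17 of 20 ACADVL exons and 14 of 19 HADHA exons, while those of ACACB cross.

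ACADVL, the very-long-chain acyl-CoA dehydrogenase, takes the first oxidation step of the longest chains (chr19:26934736-26940043, plus strand). It was at 56.4, 66.2 and 55.8 FPKM in Shandong black 1, 2 and 3 and at 44.5, 33.1 and 40.0 FPKM in Luxi 1, 2 and 3. No Luxi animal reached the lowest Shandong black animal. The means were 59.5 ± 5.87 and 39.2 ± 5.72 FPKM (SD, n = 3 each), a ratio of 0.659. The log2 fold change of -0.59 (SE 0.23, 95% interval -1.14 to -0.05) had a limma adjusted p of 0.194, and the exact permutation p was 0.1. All 3 Luxi animals were lower in 17 of 20 exons. Beside the reference transcript of 20 exons, assembled transcripts with 19 exons were listed in the Luxi animals and in no Shandong black animal. One of 2211 bases was at 8.97 FPKM in Luxi 1, and one of 2377 bases was at 3.02 FPKM in Luxi 2 and at 4.62 FPKM in Luxi 3. The reference transcript by itself was at 55.7 to 66.2 FPKM in Shandong black cattle and at 30.1 to 35.5 FPKM in Luxi cattle.

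ACADM, the medium-chain acyl-CoA dehydrogenase (chr3:69086074-69124524, minus strand), was at 30.6, 36.5 and 28.2 FPKM in Shandong black 1, 2 and 3. In Luxi 1, 2 and 3 it was at 34.2, 15.8 and 19.0 FPKM. Luxi 1 lay among the Shandong black animals, and the other two Luxi animals were well below them. Over all 6 animals the log2 fold change was -0.52 (SE 0.31, 95% interval -1.25 to 0.21, limma adjusted p = 0.370). Without Luxi 1 it was -0.83, with an adjusted p of 0.0520. The ratio of ACADVL to ACADM overlapped between the breeds. It was 1.81 to 1.97 in Shandong black cattle, 1.302 in Luxi 1 and above the Shandong black range in the other two Luxi animals.

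HADHA and HADHB encode the alpha and beta subunits of the mitochondrial trifunctional protein, which carries out the last 3 steps of a round for long chains. HADHA holds the hydratase and dehydrogenase activities, and HADHB the thiolase. The genes lie head to head on chromosome 11, HADHB at chr11:73226233-73256446 on the minus strand and HADHA at chr11:73262063-73298911 on the plus strand. HADHA was at 57.2, 86.9 and 67.0 FPKM in Shandong black 1, 2 and 3 and at 50.1, 32.2 and 42.4 FPKM in Luxi 1, 2 and 3. It was the highest of the 10 genes by mean in both breeds, and all Luxi animals lay below all Shandong black animals. The means were 70.4 ± 15.1 and 41.6 ± 8.99 FPKM (SD, n = 3 each). The log2 fold change of -0.75 (SE 0.28, 95% interval -1.40 to -0.09) had a limma adjusted p of 0.180, and the exact permutation p was 0.1. All 3 Luxi animals were lower in 14 of 19 exons.

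HADHB showed no such separation. It was at 38.0, 35.7 and 27.0 FPKM in Shandong black 1, 2 and 3 and at 47.8, 24.0 and 22.0 FPKM in Luxi 1, 2 and 3. Luxi 1 was the highest of the 6 animals, and the other two Luxi animals were the lowest. The log2 fold change was -0.17 (SE 0.34, 95% interval -0.96 to 0.62, limma adjusted p = 0.799), and it turned to 0.03 without Luxi 3 and to -0.51 without Luxi 1. HADHA exceeded HADHB by 1.51, 2.43 and 2.49 times in Shandong black 1, 2 and 3 and by 1.05, 1.34 and 1.92 times in Luxi 1, 2 and 3, so this ratio overlapped between the breeds. Of the 10 annotated HADHB transcripts, those with the most FPKM differed from animal to animal within a breed, and these share nearly all of their exons. One of them, with 16 exons and its 5′ end at chr11:73256318, was at 18.4, 0.718 and 10.2 FPKM in Shandong black 1, 2 and 3 and at 18.1, 7.41 and 8.90 FPKM in Luxi 1, 2 and 3.

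The HADHA reads did not follow the annotated start of the gene. The annotated transcript carried only 0.119 to 2.42% of the HADHA level, and an assembled transcript of 20 exons carried 97.6 to 99.9% in every animal. That transcript keeps the annotated end of the gene and adds an upstream exon that was assembled separately in each of the 6 libraries. The added exon ended at chr11:73256732 and was joined to the next exon at chr11:73262066 in all 6 animals, while its start varied from chr11:73256550 to chr11:73256625. It thus began 5438 to 5513 bases upstream of the annotated HADHA start. It lay 103 to 178 bases from the most upstream annotated end of HADHB, on the opposite strand. With reference transcripts only, HADHA was at 0.103 to 0.779 FPKM and fell out of the test, so its level rests on this assembled transcript.

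**Figure D3:**
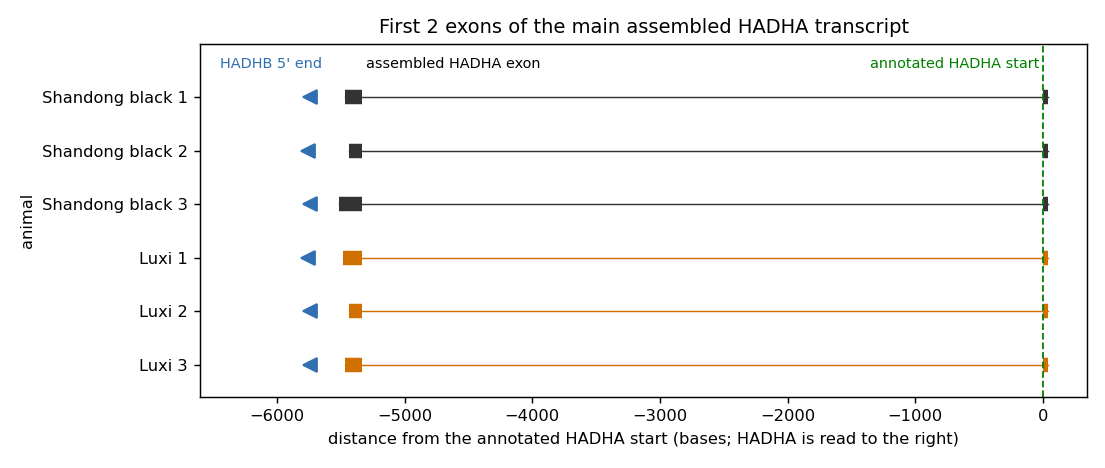
The first 2 exons of the main assembled HADHA transcript in each animal, drawn to scale in bases from the annotated HADHA start (dashed), with a triangle at the 5′ end of the main annotated HADHB transcript of that animal, which is read to the left. In all 6 animals the first exon lies 5438 to 5513 bases upstream of the annotated start and 231 to 319 bases from the HADHB end.

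ECI1, an enoyl-CoA isomerase needed for unsaturated fatty acids (chr25:1765101-1777754, minus strand), was the lowest of the 10 genes in both breeds. It was at 5.41, 3.63 and 5.55 FPKM in Shandong black 1, 2 and 3 and at 2.39, 3.46 and 4.23 FPKM in Luxi 1, 2 and 3. Luxi 3 lay above Shandong black 2, so the breeds overlapped. Its log2 fold change was -0.43 (SE 0.23, 95% interval -0.97 to 0.11, limma adjusted p = 0.315), and it was -0.26 without Luxi 1.

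ETFDH, which passes the electrons of the acyl-CoA dehydrogenases to ubiquinone (chr17:40292087-40337077, minus strand), was at 22.7, 30.3 and 28.9 FPKM in Shandong black 1, 2 and 3. In Luxi 1, 2 and 3 it was at 21.6, 24.1 and 23.4 FPKM, within a narrow band. The breeds overlapped through Shandong black 1. Its log2 fold change was -0.23 (SE 0.21, 95% interval -0.72 to 0.27, limma adjusted p = 0.562). PPID shares 285 exon bases with ETFDH on the opposite strand, 9.13% of the ETFDH exons.

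**Figure D4:**
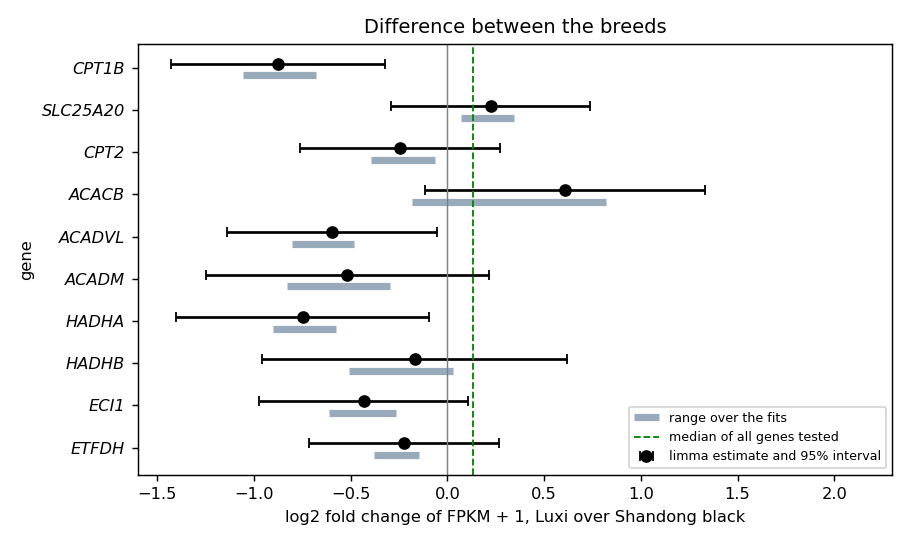
Log2 fold change of FPKM + 1, Luxi over Shandong black, for the 10 genes with its limma 95% interval (points and bars), the range over all fits (grey-blue) and the median of all genes tested at 0.13 (dashed). The intervals of CPT1B, ACADVL and HADHA lie below 0, and the range over the fits crosses 0 for HADHB and ACACB.

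By mean FPKM, the order in Shandong black cattle was HADHA, ACADVL, HADHB, ACADM, ETFDH, CPT1B, SLC25A20, ACACB, CPT2 and ECI1. Among neighbours in this order the animals were fully separate between ACADVL and HADHB, between ETFDH and CPT1B, between CPT1B and SLC25A20 and between CPT2 and ECI1. The other neighbours overlapped. In Luxi cattle CPT1B moved from place 6 to place 8, below ACACB and SLC25A20, and only CPT2 and ECI1 were separate neighbours. Among all genes tested, the 10 genes reached from percentile 53.2 (ECI1) to percentile 96.0 (HADHA) by mean FPKM. Shandong black 2 had the highest level of its breed in 8 of the 10 genes. The summed FPKM of the 10 genes was 252, 316 and 261 in Shandong black 1, 2 and 3 and 241, 184 and 196 in Luxi 1, 2 and 3.

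The rest of the pathway was read from lists of 37 further genes of carnitine and malonyl-CoA metabolism, mitochondrial and peroxisomal beta-oxidation and electron transfer. Of these, 32 were tested and none was called (limma with Benjamini-Hochberg adjustment). At an unadjusted p under 0.05 the count was 6 of 32 genes, beside 21.8% of all genes tested. The fitted level was higher in Luxi cattle for 15 and lower for 17, and the median log2 fold change was -0.03. Among 6 other carnitine and malonyl-CoA genes the median was -0.06, and the breeds overlapped in each. The largest differences were those of MLYCD, which removes malonyl-CoA (-0.67, and -0.27 without Luxi 1), TMLHE, an enzyme of carnitine synthesis (-0.14, with a turn in direction in 6 of the other fits), and CRAT, carnitine acetyltransferase (0.13, turning to -0.02 under median-of-ratios scaling). The ratio of ACACB to MLYCD was 0.798, 0.853 and 0.989 in Shandong black 1, 2 and 3 and 4.73, 2.47 and 1.14 in Luxi 1, 2 and 3. It did not overlap, with Luxi 1 the farthest away, and it shares the dependence of ACACB on the assembled transcripts. This ratio too was chosen with the values known, setting a gene with a higher fitted level in Luxi cattle over a gene with a lower level.

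Among 14 other mitochondrial beta-oxidation enzymes, 8 had a lower and 6 a higher fitted level in Luxi cattle. The median was -0.26. All Luxi animals lay below in 3 of the 14 (ECHS1, ECH1 and ACAA2) and above in none. Of all genes tested, 9.13% had all Luxi animals below and 29.1% had breeds apart in either direction. ECHS1, the short-chain enoyl-CoA hydratase, was at 33.2, 26.0 and 28.8 FPKM in Shandong black 1, 2 and 3 and at 16.9, 18.5 and 22.0 FPKM in Luxi 1, 2 and 3 (log2 fold change -0.59, adjusted p = 0.168). ECH1, a dienoyl-CoA isomerase, was at 9.32 to 25.1 FPKM in Shandong black cattle and at 4.50 to 8.71 FPKM in Luxi cattle (-0.93, adjusted p = 0.224), and moved to -0.10 with the 90% rule for assembled transcripts and to -0.53 without Shandong black 2. ACOT2, a mitochondrial acyl-CoA thioesterase, had a log2 fold change of -0.88 (adjusted p = 0.203, and -0.55 without Shandong black 2) with overlapping breeds. Of the electron transfer flavoprotein, which feeds ETFDH, the beta subunit ETFB was at 42.8 to 57.8 FPKM in Shandong black cattle and 29.7 to 34.3 FPKM in Luxi cattle (-0.54, adjusted p = 0.224). The alpha subunit ETFA overlapped between the breeds (-0.14).

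Fitted levels of the 10 peroxisomal genes tested were higher in Luxi cattle in 7 and lower in 3, and their median was 0.12. AMACR, the racemase that prepares branched acyl-CoAs for beta-oxidation, was at 32.8, 16.2 and 23.6 FPKM in Shandong black 1, 2 and 3 and at 6.95, 8.77 and 9.75 FPKM in Luxi 1, 2 and 3. Its log2 fold change of -1.37 (SE 0.28) had a limma adjusted p of 0.0531, and the adjusted p ranged from 0.0298 to 0.202 over the other fits. ACAA1, the peroxisomal thiolase, had a log2 fold change of 0.39 with overlapping breeds.

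Regulators of the pathway and genes of mitochondrial content were read in the same way. Among 15 PPAR, ERR and PGC-1 genes and muscle PPAR targets, the fitted level was higher in Luxi cattle in 9 and lower in 6, the median was 0.01 and none was called. PPARGC1A, a coactivator of mitochondrial genes, was at 2.07, 1.70 and 1.93 FPKM in Shandong black 1, 2 and 3 and at 44.5, 5.18 and 7.14 FPKM in Luxi 1, 2 and 3 (log2 fold change 2.19, adjusted p = 0.129, and 1.29 without Luxi 1). Its relative PPARGC1B (1.29, adjusted p = 0.0855) and the pyruvate dehydrogenase kinase PDK4 (1.52, adjusted p = 0.122) also had all Luxi animals above, PDK4 turning to -1.33 with reference transcripts only. Other regulators lay the other way, and of these PPARG (-0.92, adjusted p = 0.0791) and ESRRG (-1.23, adjusted p = 0.122), added after their values were seen, had all Luxi animals below. Among 15 nuclear genes of mitochondrial energy metabolism none was called. They were genes of the citrate cycle, respiratory chain and ATP synthase, together with VDAC1 and TFAM. The fitted level was higher in Luxi cattle in 12 and lower in 3 (median 0.35). Those farthest apart were NDUFS1 (0.77) and COX5B (0.77), subunits of the respiratory chain, and ATP5F1A (0.64), a subunit of ATP synthase. Relative to citrate synthase (CS), CPT1B was at 0.245, 0.194 and 0.210 in Shandong black 1, 2 and 3 and at 0.0753, 0.0954 and 0.147 in Luxi 1, 2 and 3. The ratios of HADHA and of ACADVL to CS did not overlap either, and that of ACADM did. These ratios were chosen with the values known, for genes with a lower fitted level in Luxi cattle. CS itself overlapped between the breeds (0.14), so the ratios largely repeat the levels of those genes.

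Markers of fibre types and other cells differed between the same animals. The 9 slow fibre markers had a median log2 fold change of -1.11, with 1 called, TNNI1 (slow troponin I, -2.32, adjusted p = 0.0471, with 0.0298 to 0.192 over the other fits). Their summed level was 26985 to 33596 FPKM in Shandong black cattle and 3448 to 14092 FPKM in Luxi cattle. Much of this sum was MYL2 alone, at 16912 to 24909 FPKM in Shandong black cattle and 1513 to 7936 FPKM in Luxi cattle. In this list TNNI1, MYL2 (-2.32), MYOZ2 (-2.87), TNNT1 and TNNC1 had all Luxi animals below. The breeds overlapped in MYH7, TPM3 and ATP2A2. MYL3 had all Luxi animals above (3.33, and 2.25 to 4.35 with an animal left out). All 11 fast fibre markers had a higher fitted level in Luxi cattle (median 2.12) and none was called, TPM1 (3.05), TNNT3 (2.95) and MYH2 (3.57, and 1.35 with reference transcripts only) being the farthest apart. Their sums were 3928 to 6817 FPKM in Shandong black cattle and 5779 to 35546 FPKM in Luxi cattle, Luxi 1 lying within the Shandong black range. The general muscle markers ACTA1 (-0.23), CKM (0.25) and DES (-1.20, and -0.14 without Luxi 1) overlapped between the breeds and were not called. The part of the fibre types in the levels of the 10 genes was not tested.

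Of 8 fat cell markers tested, 5 were called lower in Luxi cattle, ADIPOQ (-3.50), FABP4 (-3.90), PLIN1 (-3.06), CIDEC (-2.78) and LIPE (-1.46). LPL of the same list, added after its values were seen, had all Luxi animals above, at 16.7 to 17.5 FPKM in Shandong black cattle and 23.3 to 37.2 FPKM in Luxi cattle (0.85, adjusted p = 0.106). All 9 markers together summed to 151 to 214 FPKM in Shandong black cattle and 50.4 to 74.0 FPKM in Luxi cattle. Of 6 fibroblast markers, COL1A2 (1.67) and COL3A1 (2.94) were called higher, and COL1A1 was at 1.65 (adjusted p = 0.0589). The fibroblast sums were 113 to 169 FPKM in Shandong black cattle and 384 to 511 FPKM in Luxi cattle. The 4 endothelial markers were not called (CDH5 1.52, PECAM1 0.87 and KDR 0.67, and without Luxi 1 PECAM1 0.51 and KDR 0.11), with sums of 17.0 to 18.1 and 22.5 to 63.4 FPKM. Of the immune markers 3 were tested and none was called (CSF1R -0.66, CD163 -0.16, PTPRC -0.14), and the red blood cell markers summed to at most 1.65 FPKM in any animal and were not tested. XIST, which is expressed from the inactive X chromosome, was at 10.7, 4.83 and 14.0 FPKM in Shandong black 1, 2 and 3 and was listed at 0, 0 and 0.207 FPKM in Luxi 1, 2 and 3, and was called lower in Luxi cattle (adjusted p = 0.0105). In the fibre, cell type, sex, regulator and mitochondrial lists together, 9 genes were called, XIST among them. This fell to 1 without Shandong black 1 or without Shandong black 3 and to 5 without Luxi 2, and rose to 19 without Luxi 1. The part of other cells in the levels of the 10 genes was not tested. XIST split the animals by breed, so any part of sex in these levels cannot be told apart from breed.

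**Figure D5:**
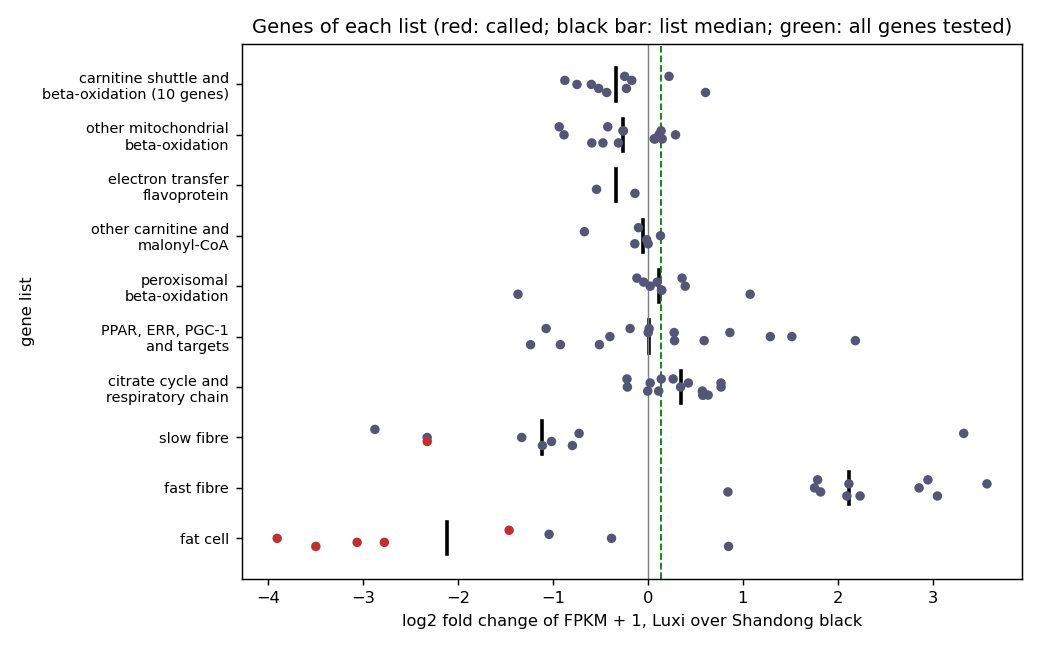
Log2 fold change of FPKM + 1, Luxi over Shandong black, of every gene tested in 10 lists, with a point for each gene (red where called), a black bar at the median of the list and a dashed line at the median of all genes tested. The 10 carnitine shuttle and beta-oxidation genes lie between -0.87 and 0.61, while the slow fibre, fast fibre and fat cell markers reach from -3.90 to 3.57.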

How the data were processed

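The authors used Fastp for trimming, HISAT for alignment to ARS-UCD1.2 and StringTie, library by library and stranded, for assembly (version 1.3.3b per the file headers, another in the Methods). The deposited transcript files give coverage, FPKM and TPM as text attributes beside each transcript; this attribute column was treated as other than a single numeric unit. A transcript absent from a file was counted as 0. The authors' Cuffdiff test needs alignments and was not run. Gene FPKM was summed over reference transcripts plus assembled transcripts that had 50% or more of their length on the gene's exons, same strand; 21.6 to 29.8% of FPKM was left out. Limma 3.58.1 (R 4.3.3; lmFit, eBayes with trend) tested log2(FPKM + 1), which understates changes of low genes, in genes whose mean reached 1 FPKM in a breed, with Benjamini-Hochberg adjustment, after a check on simulated data. Exon coverage was the coverage of all transcripts over the reference exons, divided by aligned gigabases. Read counts are unknown, so no counting error is given. Limma SEs, intervals and p-values rest on the spread between 3 animals a breed, drawn by eBayes toward that of genes at like levels. They therefore do not measure the spread of a single gene alone.

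The 10 genes and all lists were chosen with earlier results of these data known. Beyond the 10 genes, the text names every called gene of a list, its 3 genes farthest apart, and 5 genes most like the 10; others were chosen after their values were seen, and 1 gene that this rule names is not reported here. Alternatives were another pseudocount, filters, TPM, scalings, eBayes without trend, voom, a replicate block, other rules for assembled transcripts, leaving out each animal and, chosen after seeing the data, mean coverage of the reference exons.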

Additional observations from a re-analysis of the deposited data

How the results depend on the processing

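CPT1B, CPT2, SLC25A20, ACADM, ACADVL, HADHA, ECI1 and ETFDH kept their direction in every fit that tested them, and the median of the 10 genes stayed negative. HADHB turned to 0.031 without Luxi 3 (-0.51 to 0.031 with an animal left out), and ACACB to -0.15 with reference transcripts only and to -0.18 with the 90% rule. Of the 10 genes, 1 (CPT1B) was called under TPM, median-of-ratios size factors and quantile normalization, and 0 with any single animal left out. Those whose breeds did not overlap numbered 3, beside 29.1% of all genes. They were 2 with voom (28.4%) and with reference transcripts only (28.4%, HADHA not tested), 5 under size factors (28.6%) and 3 to 6 with an animal left out (34.0 to 50.4%). Of the wider pathway, 1 gene (AMACR) was called with a mean FPKM of at least 5, TPM, size factors, quantile normalization and exon coverage. With an animal left out 0 to 1 were called, AMACR without Shandong black 2 and another gene without Luxi 1. Over all genes, 251 were called (286 at any fold change), against 47 without a filter, 134 with a mean FPKM of at least 5, 91 with voom and 163 with reference transcripts only. With an animal left out the count was 3 (without Shandong black 3) to 593 (without Luxi 1), with 10 without Shandong black 1, 44 without Luxi 2 and 87 without Luxi 3. The 151 higher and 100 lower calls became 115 and 149 under size factors and 124 and 164 under quantile normalization. In the fibre, cell type, sex, regulator and mitochondrial lists 9 genes were called, against 3 without a filter, 4 with voom and 1 to 19 with an animal left out. Same-numbered animals are different animals whose deviations correlated at 0.0840, 0.0869 and 0.0745, each animal most with its own number. With a replicate block 135 genes were called and 0 of the 10.

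Other turns in direction were those of CRAT (-0.022 under size factors, -0.039 without Luxi 2, -0.039 to 0.42 with an animal left out), TMLHE (0.42 with reference transcripts only and with the 90% rule, 0.63 with exon coverage, 0.18 without Shandong black 2, 0.0099 without Luxi 2, 0.019 without Luxi 3 and -0.50 to 0.18 with an animal left out), PDK4 (-1.33 with reference transcripts only), ACTA1 (0.45 without Luxi 1, else down to -0.63), CKM (-0.0032 without Shandong black 1, -0.16 without Luxi 2, else up to 0.78), PTPRC (0.085 without Luxi 2, else down to -0.27) and CD163 (0.030 without Luxi 3, else down to -0.43). The causes were not tested.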

Other observations

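The 5 genes outside the pathway whose profile over the 6 animals was most like the mean profile of the 10 genes were RNF146, HAT1, LOC112446383, AIFM1 and CTPS2. The likeness is the root mean square difference of the centred log2(FPKM + 1) values, which was 0.0463, 0.0497, 0.0596, 0.0602 and 0.0620 in that order. AIFM1, a flavoprotein of mitochondria, was at 15.4, 17.4 and 16.8 FPKM in Shandong black 1, 2 and 3 and at 15.1, 13.2 and 12.9 FPKM in Luxi 1, 2 and 3 (limma adjusted p = 0.439). None of the 5 genes was called, which follows from choosing them for their likeness to a profile with small differences.

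In some animals a further transcript on the strand of ETFDH was left out of the gene level, since most of its bases lay outside the annotated exons. Such a transcript was at 4.77 FPKM in Luxi 1, 3.20 FPKM in Shandong black 2 and 2.66 FPKM in Luxi 3. None was found in the other 3 animals. Whether these animals held the same transcript was not compared. The covered bases equalled 85.6% of those counted for ETFDH in Luxi 1, 41.9% in Shandong black 2 and 40.7% in Luxi 3. Transcripts on the opposite strand of the 10 genes summed to at most 1.90 FPKM for any gene in any animal.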
